A study of Arabidopsis thaliana with 12 samples.

Results

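*DDM1* (AT5G66750), *MET1* (AT5G49160), *SUVH4* (AT5G13960) and *NRPD1* (AT1G63020) are nuclear genes of the machinery that keeps transposable elements silent in *Arabidopsis*. Each was taken by its locus, and 1 probe set of the Affymetrix ATH1 array was found for each. Thus 4 of the 22746 probe sets that are not controls are described here. A further probe set of these genes that carries no name would not have been found. Each of the 4 probe sets was designed for a single sequence. The platform's table names none of them, and their names come from a supplementary list of the paper. That list holds genes that the study called higher after 5-AC on these same arrays, so the direction of the 4 genes after 5-AC is not independent evidence.

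RNA came from whole seedlings of ecotype Ws in 4 groups of 3 arrays. All seedlings grew in liquid 0.5× MS medium with 1% sucrose at 21 °C in constant light, and the replicates are called biological in the methods. Wild-type seedlings received DMSO alone (the control, here Ws), 5-aza-2′-deoxycytidine at 20 mg/L (5-AC, an inhibitor of DNA methyltransferases), or trichostatin A at 2.5 mg/L (TSA, an inhibitor of histone deacetylases). The *ddm1* seedlings also received DMSO. The chemicals were in DMSO, were added after 24 hours and were renewed with the medium after 5 days. The labels give harvest at 10 days, while the methods of the paper give a later day. The *ddm1* mutant is a T-DNA insertion line in Ws. The methods give the distance of the insertion from the translation start, but not the direction. The line had been backcrossed and selfed before use, and it represents 1 insertion allele.

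DNA methylation in plants is maintained by parallel pathways. MET1 copies CG methylation to the new strand after replication, and DDM1, a chromatin remodeler of the SWI2/SNF2 class, gives the methyltransferases access to heterochromatin. SUVH4 (KRYPTONITE) methylates lysine 9 of histone H3, a mark that directs methylation outside CG sites. NRPD1 is the largest subunit of RNA polymerase IV, which makes the precursors of the small interfering RNAs that guide methylation to new sites.

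All values below are log2 expression values made by the authors with gcRMA. A difference is a difference of group means on that scale, with its standard error and an adjusted p from limma fitted to all 12 arrays. The 17129 probe sets with a log2 value of at least 3 on at least 2 arrays were tested, and an adjusted p under 0.05 is called higher or lower. All 4 genes passed this filter, and none was near the floor of the signal in any group (below the 25th percentile of each array of the group). Over the tested probe sets the arrays of a group correlated with each other at 0.961 to 0.987 (Pearson's r), lowest after 5-AC. The seedlings hold many cell types, so more cells of a kind and more RNA per cell cannot be told apart.

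After 5-AC all 4 genes were higher than in Ws. The rise was 6.80-fold for *SUVH4*, 5.21-fold for *DDM1*, 3.49-fold for *NRPD1* and 3.01-fold for *MET1*. In the *ddm1* seedlings only *DDM1* of the 4 was called, at 7.05-fold above Ws, and after TSA only *SUVH4*, at 1.74-fold. In all tested probe sets 30.9% were called higher after 5-AC, 1.35% in *ddm1* and 7.14% after TSA.

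**Figure D1:**
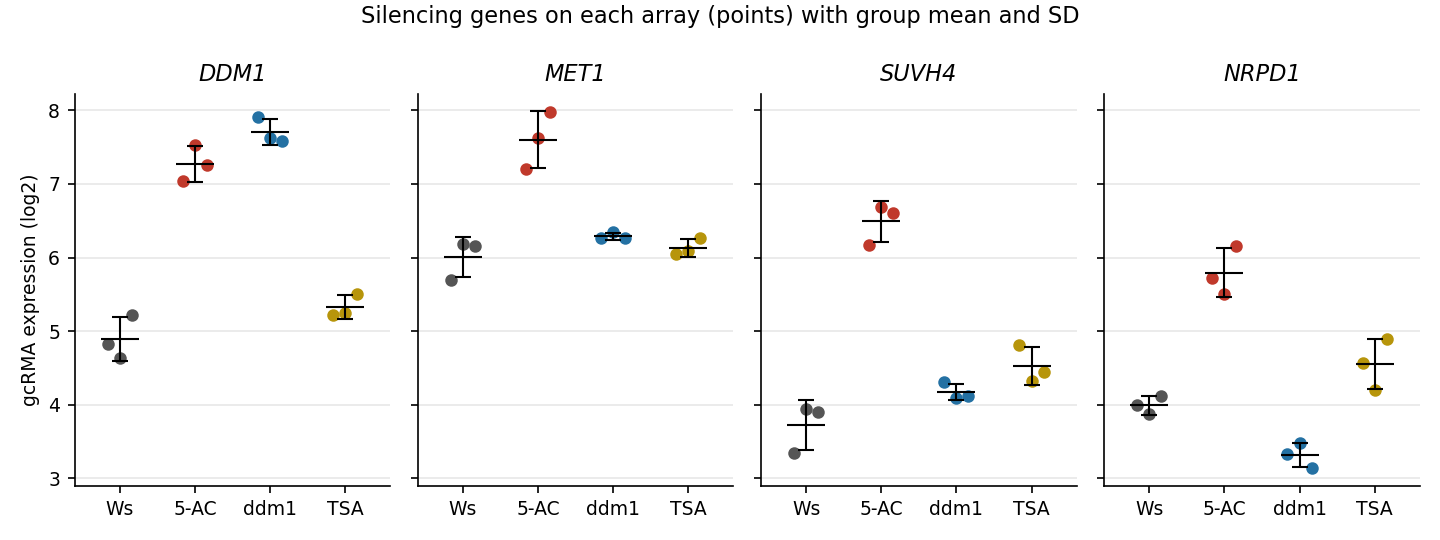
Expression (log2, y axis) of *DDM1*, *MET1*, *SUVH4* and *NRPD1* on each of the 12 arrays (points), by group on the x axis, with the group mean and SD in black (n = 3). The 5-AC arrays lie above the Ws arrays for each gene, and the *ddm1* arrays reach above the 5-AC arrays for *DDM1* alone, at 7.59 to 7.91.

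*DDM1* is the gene mutated in the *ddm1* seedlings and was examined first. The Ws arrays gave 4.83, 4.64 and 5.21 and the arrays labelled *ddm1* gave 7.91, 7.63 and 7.59. Each *ddm1* array was thus above each Ws array, by a gap of 2.37 between the nearest pair. The means were 4.89 ± 0.29 (SD, n = 3) and 7.71 ± 0.18 (SD, n = 3), a difference of 2.82 (standard error 0.18, 95% confidence interval 2.41 to 3.22, adjusted p = 1.8e-06). Only 0.733% of the tested probe sets had a larger difference in this comparison. The test that the methods name did not call it (adjusted p = 0.11). The other settings, apart from leaving out single arrays, gave an adjusted p of 1.2e-06 to 7.3e-04 from limma. Where the probes lie relative to the insertion is not known from the files, so the signal checks neither the mutant's label nor whether an intact transcript is made.

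The 5-AC arrays gave 7.04, 7.53 and 7.26 for *DDM1*. All lay above Ws and all lay below the *ddm1* arrays, the latter by a gap of only 0.06 between the nearest pair. The difference from Ws was 2.38 (standard error 0.18, adjusted p = 1.6e-06), and that between 5-AC and *ddm1* was -0.44 (95% confidence interval -0.84 to -0.03, adjusted p = 0.065). This last difference passed the threshold when arrays were centred on housekeeping genes (-0.60, adjusted p = 0.012), when quantile normalization was repeated (-0.51, adjusted p = 0.043), without 5-AC replicate 2 (-0.56, adjusted p = 0.035) and without Ws replicate 3 (-0.44, adjusted p = 0.044). Of the 3 housekeeping genes *TIP41L* was itself higher after 5-AC (1.14) and *UBC21* lower (-0.52), while *SAND* had 0.14 (adjusted p = 0.36). The TSA arrays gave 5.22, 5.25 and 5.51, just above the highest Ws array. Their mean stood 0.43 above Ws (standard error 0.18, adjusted p = 0.15). The order of the *DDM1* means was therefore Ws, TSA, 5-AC and *ddm1*, with a clear step only between TSA and 5-AC (1.95, adjusted p = 7.6e-06).

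*MET1* encodes the methyltransferase of CG sites and belongs to the same enzyme family as the mammalian target of 5-AC. The Ws arrays gave 5.70, 6.18 and 6.15 and the 5-AC arrays 7.21, 7.62 and 7.98. The groups did not overlap. The means were 6.01 ± 0.27 (SD, n = 3) and 7.60 ± 0.39 (SD, n = 3), and the difference was 1.59 (standard error 0.20, adjusted p = 4.4e-05). This was the smallest of the 4 responses to 5-AC. The *ddm1* arrays (6.27, 6.35 and 6.26) were the tightest group of any of the 4 genes, with an SD of 0.047. They lay just above the highest Ws array, and their mean differed from Ws by 0.28 (95% confidence interval -0.15 to 0.71, adjusted p = 0.99). The TSA arrays (6.04, 6.09 and 6.27) overlapped with Ws and *ddm1*. Their difference from Ws was 0.12 (95% confidence interval -0.31 to 0.56, adjusted p = 0.74) and changed sign without Ws replicate 1 (-0.03). In order of the means Ws, TSA and *ddm1* were neighbours, and no difference among them was called. The 5-AC mean stood above *ddm1* by 1.31 (adjusted p = 1.8e-04 from limma) and above TSA by 1.47 (adjusted p = 9.1e-05).

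*SUVH4*, the histone H3 lysine 9 methyltransferase, rose the most of the 4 after 5-AC. The Ws arrays gave 3.34, 3.94 and 3.90 and the 5-AC arrays 6.17, 6.69 and 6.61, with a gap of 2.23 between the groups. The difference was 2.77 (standard error 0.21, 95% confidence interval 2.31 to 3.22, adjusted p = 1.1e-06). *SUVH4* was also the member called after TSA. Its TSA arrays (4.81, 4.32 and 4.45) were all above Ws, by a mean of 0.80 (standard error 0.21, adjusted p = 0.025). That call was lost without TSA replicate 1 (0.66, adjusted p = 0.089), without Ws replicate 1 (0.60, adjusted p = 0.092), when only TSA and Ws arrays were fitted (adjusted p = 0.080) and by the test that the methods name (adjusted p = 0.25). In *ddm1* the arrays gave 4.30, 4.09 and 4.12, again all above Ws, with a difference of 0.45 (95% confidence interval -0.01 to 0.90, adjusted p = 0.75). TSA and *ddm1* differed by 0.35 (95% confidence interval -0.10 to 0.80, adjusted p = 0.27). The order of the means was Ws, *ddm1*, TSA and 5-AC, and 5-AC stood apart from TSA by 1.97 (adjusted p = 1.6e-05).

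*NRPD1*, of RNA polymerase IV, was the member whose *ddm1* arrays lay lowest. The Ws arrays gave 3.99, 3.87 and 4.12 and the *ddm1* arrays 3.33, 3.47 and 3.14, so that each *ddm1* array was below each Ws array. The difference was -0.68 (standard error 0.21, 95% confidence interval -1.13 to -0.22), with an adjusted p of 0.29. It did not pass the threshold, although 98.3% of the tested probe sets had a higher difference in this comparison. After 5-AC the arrays gave 5.72, 5.51 and 6.16, a difference from Ws of 1.80 (standard error 0.21, adjusted p = 2.5e-05). The TSA arrays (4.57, 4.20 and 4.89) lay above Ws by a mean of 0.56 (standard error 0.21, adjusted p = 0.096). Set directly against *ddm1*, TSA was higher by 1.24 (standard error 0.21, adjusted p = 0.0018) and 5-AC by 2.48 (standard error 0.21, adjusted p = 2.6e-06). The order was thus *ddm1*, Ws, TSA and 5-AC, with *ddm1* and Ws, and Ws and TSA, not separated by the test.

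**Figure D2:**
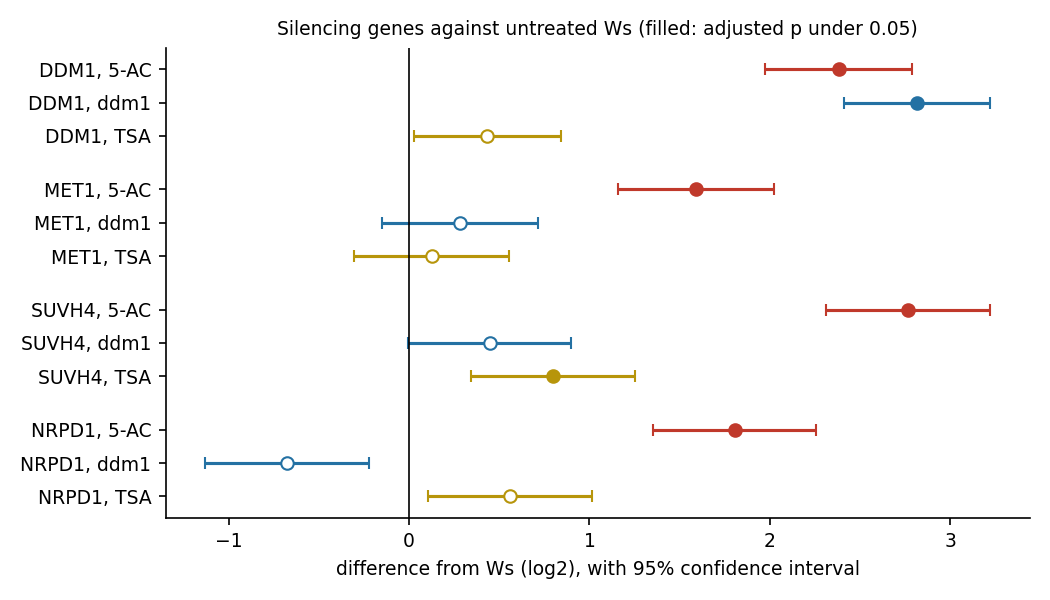
Difference from Ws in log2 units (x axis) for each gene after 5-AC, in *ddm1* and after TSA, with the 95% confidence interval from limma as bars, and filled points where the adjusted p is under 0.05. All 4 genes are filled after 5-AC (1.59 to 2.77), while in *ddm1* only *DDM1* (2.82) and after TSA only *SUVH4* (0.80) are filled.

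Seen across the comparisons, 4 of 4 genes were called higher after 5-AC (30.9% of all tested probe sets). In *ddm1* 1 of 4 was called higher (1.35%) and after TSA 1 of 4 (7.14%). The count after 5-AC was largely set by naming the genes from the list raised by 5-AC. The 3 comparisons use the same Ws arrays. The arrays did not overlap with Ws for 4 of 4 genes after 5-AC (33.2% of tested probe sets did so upward), for 4 of 4 in *ddm1* (17.1% in either direction), with *NRPD1* below Ws and the others above, and for 3 of 4 after TSA, the exception being *MET1* (19.2% upward). The median difference of the 4 genes was 2.09 after 5-AC, 0.36 in *ddm1* and 0.50 after TSA, beside medians over all tested probe sets of 0.05, -0.03 and 0.02. In the direct comparisons 3 of the 4 genes were higher after 5-AC than in *ddm1* (30.8% of all tested), the exception being *DDM1*, and 4 of 4 were higher after 5-AC than after TSA (29.4%). Between TSA and *ddm1*, *NRPD1* was higher after TSA (8.53% of all tested) and *DDM1* was lower by 2.38 on the log2 scale (9.33%).

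**Figure D3:**
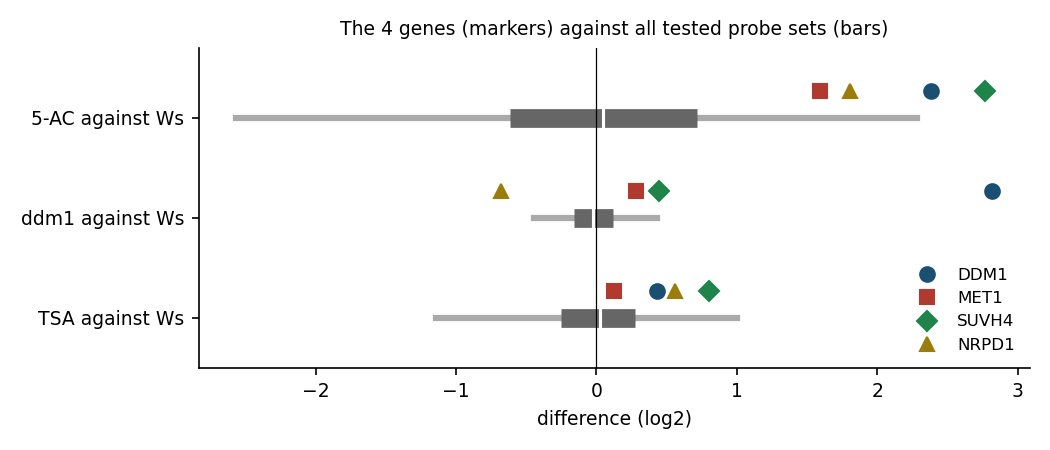
Differences from Ws (x axis, log2) of the 4 genes (markers) beside all 17129 tested probe sets (thin bar from the 5th to the 95th percentile, thick bar from the 25th to the 75th, white line at the median) in each comparison. In *ddm1*, where the middle of all probe sets is narrow, *DDM1* lies far to the right at 2.82 and *NRPD1* to the left at -0.68.

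The wider machinery was followed through a list of 71 genes of DNA methylation, histone methylation, RNA-directed silencing and demethylation. Of these 21 had a named probe set, and the others, among them *CMT3*, *DRM1* and *DRM2*, were not analysed here. These genes had 24 named probe sets, of which 21 passed the filter and were tested. Beside the 4 genes above, 17 other genes had a named probe set, and 17 probe sets of 15 of them were tested. After 5-AC 12 of the 17 were higher and 4 were lower (30.9% and 26.3% of all tested probe sets). Of the 12, 5 (*AGO9*, *CLSY4*, *FAS2* and both *CLSY3* probe sets) had reached the filter only through the 5-AC arrays and so could only be higher, and of the 4, *ROS1* had reached it only through the Ws arrays. The remaining 11 probe sets passed without the arrays of any single group, and 7 of them were higher and 3 lower. Of these, *RDM1*, *SUVR2*, *ATXR5* and *MSI1* (higher) and *HTA6* and *HTA7* (lower) are named only from the study's lists of genes changed after 5-AC. In *ddm1* 0 of the 17 were higher and 1 was lower (1.35% and 0.216% of all), with 0 higher and 2 lower at an unadjusted p under 0.05 and none called by the test that the methods name. After TSA 2 were higher and 1 was lower (7.14% and 7.35% of all). Of the 17 probe sets 9 are named only through tables of genes that the study called changed after 5-AC. Among the other 8, named by the platform's table, 6 were higher and 1 was lower after 5-AC. These 6 include *CLSY4* and both *CLSY3* probe sets, which could only be higher. Free of both limits were *UBP26* and both *DME* probe sets (higher), *H1.2* (lower) and *H1.1* (not called). The direction of the 17 after 5-AC is thus in good part set by how they were named and kept.

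Of the genes of RNA-directed methylation 6 of 6 tested probe sets were called higher after 5-AC (30.9% of all tested), but 4 of them were tested only because their 5-AC arrays are high, and 3 (*AGO9*, *RDM1* and *SUVR2*) are named only from the list of genes raised by 5-AC. The count is therefore a description. *CLSY3* and *CLSY4* encode SNF2 proteins that bring RNA polymerase IV to its targets. The *CLSY3* probe set with the larger change went from 2.57 to 2.69 on the Ws arrays to 7.10 to 7.45 on the 5-AC arrays, a difference of 4.66 (standard error 0.12, adjusted p = 6.2e-10). A further *CLSY3* probe set rose by 1.36 (adjusted p = 4.0e-04). *CLSY4* rose by 1.90 (standard error 0.27, adjusted p = 1.1e-04). *AGO9*, an Argonaute of the germ line, rose by 3.72 (standard error 0.12, adjusted p = 3.6e-09), *RDM1*, part of the complex that assists RNA polymerase V, by 2.20, and *SUVR2*, a relative of the histone methyltransferases, by 2.06. *AGO9*, *CLSY4* and the further *CLSY3* probe set were near the floor of the signal in Ws, and the first *CLSY3* probe set was at about the 25th percentile of the Ws arrays, so the sizes of these changes depend on the background level. *CLSY4* and that *CLSY3* probe set were not called by the test that the methods name (adjusted p = 0.096 and 0.087). None of the 6 was called in *ddm1* (-0.05 to 0.12) or after TSA (-0.29 to 0.25), with 0 in *ddm1* and 1 after TSA at an unadjusted p under 0.05.

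Of the genes that remove methylation, 2 (*ROS1* and *DME*) were tested. *ROS1*, a DNA glycosylase that excises methylated cytosine, was called lower in all 3 comparisons. It was tested only because its Ws arrays are high, so each comparison with Ws could only show it lower. It stood at 3.52 to 3.66 in Ws, 2.07 to 2.19 after 5-AC, 2.17 to 2.55 in *ddm1* and 2.20 to 2.71 after TSA. The differences were -1.50 after 5-AC (adjusted p = 1.5e-05), -1.31 in *ddm1* (adjusted p = 5.6e-04) and -1.22 after TSA (adjusted p = 6.6e-04). All these comparisons rest on the same 3 Ws arrays, and *ROS1* was near the floor after 5-AC and in *ddm1*. The test of the methods called it neither in *ddm1* (adjusted p = 0.36) nor after TSA (adjusted p = 0.20). *DME*, a relative of *ROS1* which acts in the central cell of the ovule, rose after 5-AC in both tested probe sets, by 1.11 and 0.93. After TSA it rose by 1.27 (adjusted p = 0.0012) and 0.57 (adjusted p = 0.026). The latter call was lost when arrays were centred on housekeeping genes (0.51, adjusted p = 0.053), when only TSA and Ws arrays were fitted (adjusted p = 0.091), without TSA replicate 1 or 3, and without Ws replicate 1 or 2, and neither probe set was called after TSA by the test that the methods name. In *ddm1* both stood within 0.02 of Ws.

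Other silencing genes moved both ways after 5-AC. *ATXR5*, which methylates lysine 27 of histone H3, rose by 1.88, the chromatin assembly factor genes *FAS2* and *MSI1* by 1.49 and 1.19, and the ubiquitin protease gene *UBP26* by 1.31. The 3 of these genes that fell encode histones. The linker histone gene *H1.2* fell by 1.71 on the log2 scale, not called by the methods' own test (adjusted p = 0.068), and *HTA6* and *HTA7*, which encode the heterochromatin histone H2A.W, fell by 1.70 and 1.31. The linker histone gene *H1.1* had a difference of -0.63 (adjusted p = 0.11). None of these 8 was called in *ddm1*, where *HTA7* had -0.49 (adjusted p = 0.70), *H1.2* -0.33 (adjusted p = 0.99) and *ATXR5* -0.16 (adjusted p = 1.0). After TSA *ATXR5* had 0.58 (adjusted p = 0.099), *UBP26* -0.51 (adjusted p = 0.060) and *MSI1* 0.36 (adjusted p = 0.13). *ATXR5* became called with repeated quantile normalization (0.68, adjusted p = 0.04996) and without TSA replicate 3 (0.79, adjusted p = 0.026), and *UBP26* with housekeeping centring (-0.57, adjusted p = 0.027) and without 5-AC replicate 1 or 3 (adjusted p = 0.046 and 0.031).

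**Figure D4:**
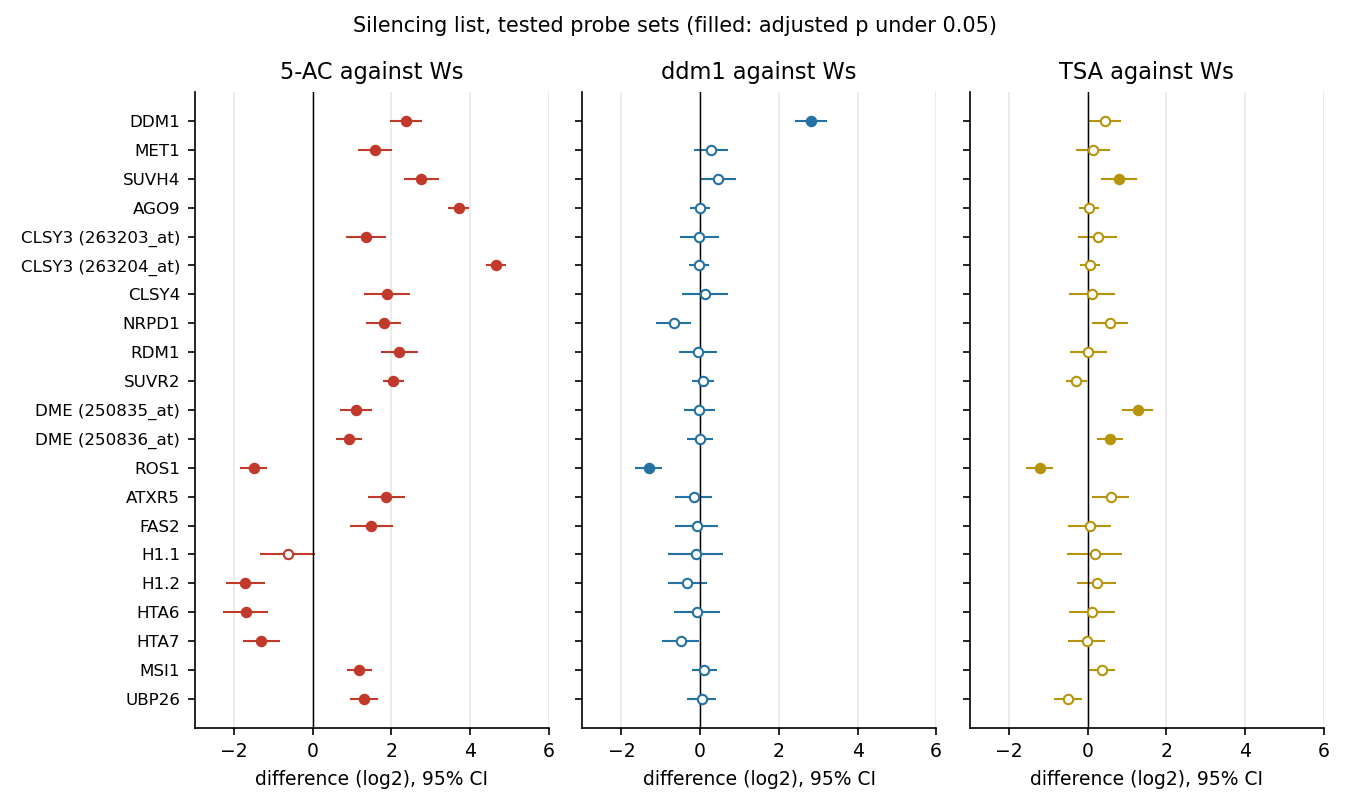
Differences from Ws (x axis, log2, with 95% confidence intervals) of the 21 tested probe sets of the silencing list (y axis) after 5-AC, in *ddm1* and after TSA, filled where the adjusted p is under 0.05. After 5-AC 16 of the 17 probe sets other than the 4 genes are filled, from -1.71 to 4.66, whereas in *ddm1* *DDM1* and *ROS1* are the filled points.

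*MET1* and *DDM1* are known to be most active in dividing cells, so genes of the cell cycle were followed beside them. After 5-AC 5 of 7 S phase genes were higher and 2 were lower (30.9% and 26.3% of all tested probe sets), and of the 5 *CDC6* was tested only through its 5-AC arrays. *TSO2* and *RNR1*, subunits of ribonucleotide reductase, rose by 3.31 and 2.32, and the replication origin gene *ORC6* by 2.27. The 2 lower S phase genes were *MCM7* at -0.96 (adjusted p = 0.0015) and *CDC45* at -0.92 (adjusted p = 0.0023), so the list did not move as a whole. *CDC45* was near the floor after 5-AC. Of the mitosis genes 0 of 8 were higher and 7 were lower (26.3% of all tested), among them *KN* (KNOLLE, which fuses vesicles at the forming cell plate) at -3.04, *HIK* (a kinesin of cytokinesis) at -2.70 and *AUR1* (an Aurora kinase) at -2.29. The mean level of the S phase list was 5.10 to 5.53 on the Ws arrays and 6.49 to 6.86 on the 5-AC arrays, and that of the mitosis list was 5.24 to 5.64 and 3.41 to 3.70. Of these probe sets 5 in each list are named only through the tables of genes called after 5-AC. Without them 1 S phase gene was higher and 1 lower, and 2 of 3 mitosis genes were lower. In *ddm1* and after TSA 0 of the 7 and 0 of the 8 were called. At an unadjusted p under 0.05, no S phase gene passed in either comparison, while 2 mitosis genes were higher in *ddm1* and 1 was lower after TSA. In *ddm1* the mitosis list stood at 5.58 to 5.81. Tissue markers moved as well, with 6 of 6 root genes and 2 of 2 leaf photosynthesis genes lower after 5-AC (26.3% of all tested), 2 of 6 root genes lower after TSA (*CASP1* at -1.63 and *COBL9* at -2.06, with 7.35% of all tested) and none called in *ddm1*. The methods' test called neither leaf gene after 5-AC (adjusted p = 0.13 for each) and neither root gene after TSA (adjusted p = 0.15 and 0.18), and *CASP1* after TSA was also lost without TSA replicate 2 (-1.50, adjusted p = 0.051) or Ws replicate 1 (-1.48, adjusted p = 0.052). The part of cell division or tissue composition in the rise of the 4 genes was not tested.

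**Figure D5:**
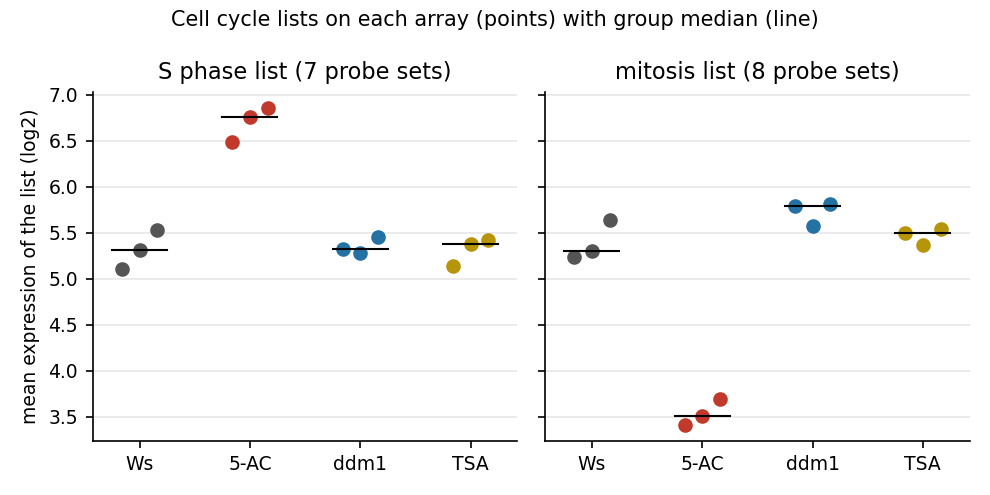
Mean expression (log2, y axis) of the 7 S phase and the 8 mitosis probe sets on each array (points), by group on the x axis, with the group median as a line. On the 5-AC arrays the S phase list lies above Ws (6.49 to 6.86) and the mitosis list below it (3.41 to 3.70), while *ddm1* and TSA stay between 5.13 and 5.81 in both.

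The genes most alike in pattern were found by Pearson's r with each of the 4 genes over the 12 arrays, among 11125 tested probe sets named for 1 gene. The arrays fall into 4 groups, so r mainly compares group means, and it is given as a description. For *DDM1* the 5 most alike (r = 0.983 to 0.988) were the probe sets of AT1G36190, AT4G28960, AT2G12250, AT3G15600 and AT3G30670, all of RefSeq type pseudogene. AT1G36190 had means of 2.60 in Ws, 3.25 after TSA, 7.75 after 5-AC and 8.65 in *ddm1*, the same order as *DDM1* over a wider range. Each of these 5 probe sets matches several sequences, so which of these loci gave the signal is not known. Of the 50 probe sets most like *DDM1*, a number chosen after the values were seen, 45 were of RefSeq type pseudogene, against 3.06% of the probe sets compared and 0 of the 50 most like each of *MET1*, *SUVH4* and *NRPD1*. This type was not split here into transposable element genes and other pseudogenes. The paper treats these classes apart, with many transposable elements raised and few pseudogenes changed. Which of these classes the 45 belong to was not determined.

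The other 3 genes were most like protein-coding genes whose highest mean was after 5-AC. For *MET1* these were *RPA70C* (r = 0.985), a subunit of the single-strand binding protein RPA, AT5G48500, AT3G57060, the organelle mismatch repair gene *MSH1* and the sugar transporter gene *SWEET4*. *RPA70C* had means of 3.55 in Ws, 5.25 after 5-AC, 3.81 in *ddm1* and 3.66 after TSA. For *SUVH4* they were *MSI3* (r = 0.989), of the same family as *MSI1*, AT5G01030, *TDX*, AT5G41970 and *LSH4*. *MSI3* had means of 5.57 in Ws, 7.64 after 5-AC, 5.76 in *ddm1* and 6.09 after TSA. For *NRPD1* they were AT3G51180 (r = 0.962), *PC-MYB1*, a MYB factor of the cell cycle, the iron reductase gene *FRO3*, AT2G23940 and *ARGOS*. All 5 had their lowest mean in *ddm1*, as *NRPD1* did, with *FRO3* at 3.32 in *ddm1*, 3.79 in Ws, 4.36 after TSA and 5.83 after 5-AC. Of these 15 probe sets 8 have their name only from the paper's supplementary lists.

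Among the 4 genes themselves *MET1* and *SUVH4* were the most alike over the 12 arrays (r = 0.95), followed by *SUVH4* and *NRPD1* (0.86) and *MET1* and *NRPD1* (0.79). *DDM1* was less like the others, with r of 0.57 for *MET1*, 0.49 for *SUVH4* and 0.06 for *NRPD1*. Once each group's mean was taken off, r was 0.64 for *MET1* and *SUVH4* and 0.10 to 0.45 for the other pairs. These values describe 12 arrays that share their groups, and no test was made of them.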

How the data were processed

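The table deposited by the authors holds log2 values of 22810 probe sets on 12 ATH1 arrays, computed with gcRMA (a background model that uses the probes' base content, then quantile normalization and summarization per probe set, with array medians 4.92 to 5.03). The present calls of the methods were not used here. In their place probe sets with a value of at least 3 on at least 2 arrays were kept, and 64 controls were left out. All value columns were used.

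All groups were fitted together, without covariates, by lmFit and eBayes of limma 3.58.1 (R 4.3.3), with two-sided tests and Benjamini-Hochberg adjustment over all 17129 probe sets tested. The precision is limited by the number of arrays. An exact permutation test of 3 against 3 arrays cannot go below p = 0.10 and was not used. The fit was tested on simulated data. Alternatives were the unequal-variance test of the methods, other filters and scalings, single-sequence probe sets, 2-group fits, a variance trend, a replicate block and leaving out each array.

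Names came from the platform's table or else from the paper's supplementary gene lists, which name a further 1777 probe sets. Gene types are those of RefSeq (assembly TAIR10.1), which were not split further. Which listed probe sets had reached the filter only through 1 group's arrays was counted after the values were seen. The 4 genes and the lists were chosen with earlier results of these data known. Genes named in the text are the 4 genes, list members that were called or had the 6 largest differences in a comparison, the 3 largest of each marker list where called, and the 5 genes most alike in pattern. The S phase genes called lower after 5-AC and the housekeeping genes are named as well. Promoter motifs were not analysed here. Python 3.11.15, numpy 2.4.6, pandas 2.3.3 and matplotlib 3.10.9 joined and drew the tables.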

Additional observations from a re-analysis of the deposited data

How the results depend on the processing

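The 4 differences from Ws after 5-AC passed the threshold under all alternatives (*DDM1* 2.13 to 2.54, *MET1* 1.34 to 1.79, *SUVH4* 2.51 to 2.92, *NRPD1* 1.55 to 1.95). Naming the genes from the list raised by 5-AC largely set this. The unequal-variance test of the methods lost the calls of *DDM1* in *ddm1* (2.82), *SUVH4* after TSA (0.80), *MET1* for 5-AC against *ddm1* (1.31, adjusted p = 0.069) and against TSA (1.47, adjusted p = 0.062), and *NRPD1* for 5-AC against TSA (1.24, adjusted p = 0.051) and TSA against *ddm1* (1.24, adjusted p = 0.12). *SUVH4* after TSA was also lost with only those groups fitted (0.80), and was 0.60 to 0.91 with 1 array left out. *MET1* after TSA (0.12) turned to -0.033 without Ws replicate 1, and its highest value with 1 array left out was 0.21. *DDM1* for 5-AC against *ddm1* became called with housekeeping centring (-0.60) and repeated quantile normalization (-0.51), and was -0.56 to -0.32 with 1 array left out. The causes were not tested.

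Of the other silencing probe sets, 6 were higher and 1 lower after 5-AC with platform names alone (12 and 4 with all names). Of those 6, *CLSY4* and both *CLSY3* probe sets could only be higher. In *ddm1* the 1 lower became 0 with the test of the methods, with the stricter filter and with platform names alone. After TSA the 2 higher became 0 with the test of the methods and 1 with housekeeping centring or only those groups fitted, and the 1 lower became 0 with the test of the methods, the stricter filter and platform names alone, and 2 with housekeeping centring. Leaving out single arrays gave 1 to 2 each way.

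Over all probe sets the test of the methods called 2538 higher and 2038 lower after 5-AC (5294 and 4508 by limma), 36 and 0 in *ddm1* (232 and 37), 4 and 4 after TSA (1223 and 1259), 2787 and 2389 for 5-AC against *ddm1* (5280 and 4421), 1817 and 1570 for 5-AC against TSA (5029 and 4098) and 124 and 225 for TSA against *ddm1* (1461 and 1598). Fitting only the TSA and Ws arrays called 809 higher and 833 lower. In *ddm1* single-sequence probe sets gave 124 higher and 24 lower, and the stricter filter 24 lower. Leaving out 1 array gave 702 to 1487 higher (lowest without Ws replicate 1) and 832 to 1423 lower (lowest without TSA replicate 2) after TSA, 837 to 1802 higher for TSA against *ddm1* and 20 to 49 lower in *ddm1* (both lowest without *ddm1* replicate 3). Centring on housekeeping genes moved the median difference after 5-AC from 0.05 to -0.20 and the share of higher calls from 54.0% to 39.0%, after TSA from 49.3% to 39.1%, for 5-AC against *ddm1* from 54.4% to 44.4% and for 5-AC against TSA from 55.1% to 42.1%. Same-numbered replicates are not known to be paired (correlation of deviations from group means -0.08 to 0.52, 10 of 12 arrays most like one of their own number, a hint from the data). With the replicate block, the adjusted p of *DDM1* in *ddm1* was 2.1e-05, no call of the 4 genes changed, and 5481 probe sets were higher and 4724 lower after 5-AC.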
